A study of Mus musculus with 34 samples.

Results

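Hearts of mice that had received carbon black were compared between 28 days and 3 days after exposure, to see how the cardiac transcriptome of exposed animals moved between an early and a late day. The 2 groups, carbon black day 28 and carbon black day 3, were taken by their labels and held 5 arrays each, 10 of the 34 arrays of the study, with 1 mouse per array. All animals were female C57BL/6 mice bought at 5 to 6 weeks of age. The exposed animals had received 162 µg of Printex 90 in a single instillation into the airways, suspended in 40 µl of 0.9% NaCl with 10% lavage fluid from other mice of the strain and followed by 150 µl of air. Vehicle controls, instilled with the same fluid without particles, gave 6 arrays at day 3 and 6 at day 28. They served here to show the difference between the same days without particles. The day 28 mice were also older when their hearts were taken, so within the exposed arm time after exposure and age cannot be told apart. The tissue was a random section through the heart that contains both ventricles, so the other tissues in a section could vary from mouse to mouse.

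Printex 90 is an industrial carbon black, a powder of nearly pure carbon nanoparticles that is widely used as a model particle in lung toxicology. Particles that lodge in the lung are taken up by macrophages and call in neutrophils, and the lung then releases cytokines and acute phase proteins into the blood. The heart is reached mainly by such signals. The pathways most often looked at in it are inflammatory and interferon signalling, matrix remodelling, protein quality control and the fuel supply of the cardiomyocytes.

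Heart RNA was labelled with Cy5 and hybridised against a Cy3-labelled pool of mouse RNA, so each value below is a log2 ratio of heart to reference, and each difference is the day 28 mean minus the day 3 mean. In the heart channel of the 10 arrays, 47% to 66.6% of the spots were called well above background, with a median signal between 111 and 155 and no saturated spot. The defining genes of heart muscle were high on every array: the log2 ratios of Myh6 (alpha myosin heavy chain), Myl2 (ventricular myosin light chain), Tnni3 (cardiac troponin I) and Actc1 (cardiac actin) lay between 4.07 and 7.22. The exposed arrays lay on slides of 4 arrays, and 2 slides held 1 array of each day. The other 6 exposed arrays were all at position 4 of their slide. The number of arrays, 5 in a group, limits the precision of every value.

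Several sections stood apart in their tissue makeup. Marker scores were used to describe this, each being the mean over a marker list of the deviation of a gene from its median over the 10 arrays. The atrial score was -2.17 in carbon black day 3 replicate 2 and between -0.27 and 0.52 in the other 9 hearts. Albumin (Alb), which liver cells make, reached 4.45, 3.06 and 4.62 in carbon black day 3 replicates 1, 2 and 3, and the 5 day 28 hearts had at most 0.29. The adipocyte score ran from -2.09 in carbon black day 28 replicate 3 to 0.82 in carbon black day 3 replicate 4. The lymphocyte score was 1.06 in carbon black day 3 replicate 4 and 1.28 in carbon black day 28 replicate 1, and the same 2 hearts had the highest values of Marco, a scavenger receptor of macrophages, with 4.63 and 5.55. In bulk tissue, fewer cells of a type and less RNA per cell cannot be told apart.

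**Figure D1:**
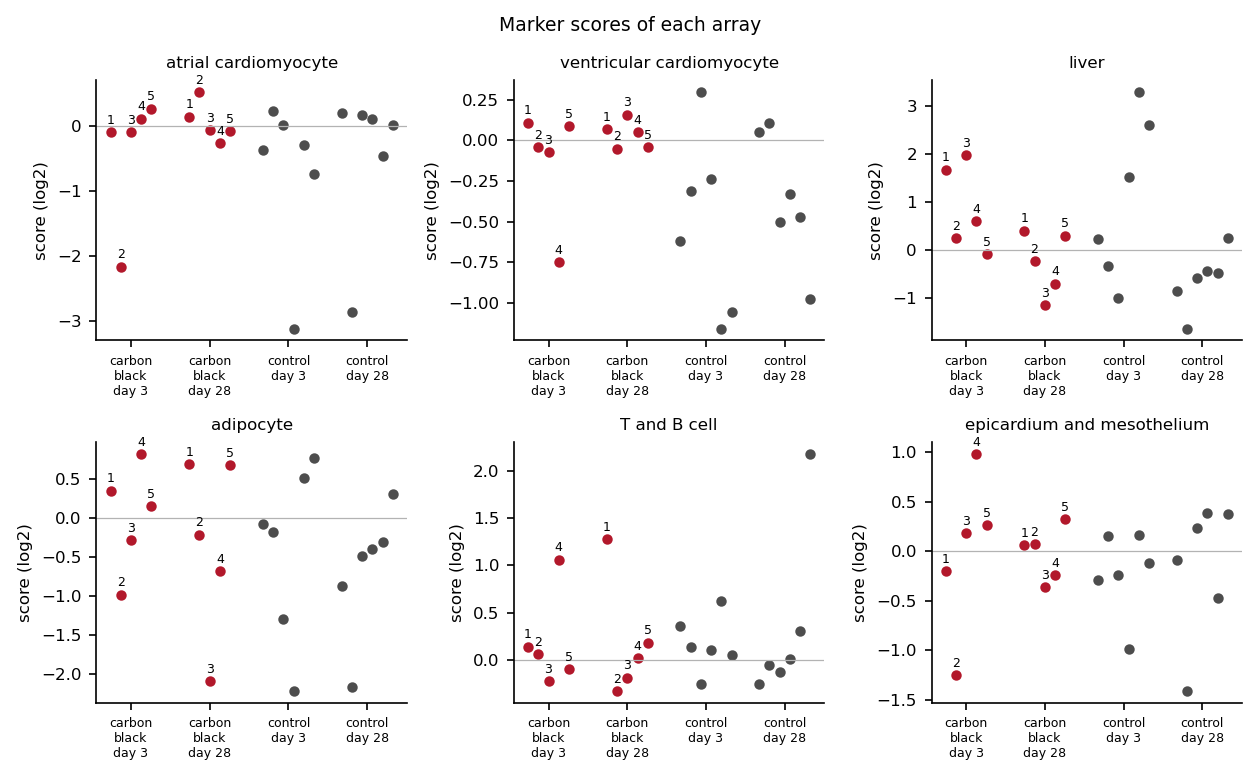
Marker scores (log2) of 6 tissues on each array, with the exposed groups in red and numbered by replicate and the controls in grey. A single day 3 heart sits at -2.17 for atrial genes, and the control arm holds hearts of the same kind.

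The 2 largest components of the difference among the 10 hearts did not follow the day. The first principal component took 34.3% of the variance over genes and day explained 0.0078% of it. The second took 21.1%, of which day explained 1.26%. The third took 12.4%, of which day explained 15.7%, and the fourth 8.71%, of which day explained 2.71%. Fat genes led the first component, with Fasn, Plin1 and Cidec at the top and 9 adipocyte markers among its 50 genes of largest loading. Genes of B cells and macrophages, Ms4a1, Cd79b, Marco and Cd5l, led the second, and the atrial gene Mybphl the third. For the median gene, day explained 4.32% of the variance. The median correlation between arrays was 0.931 within day 3, 0.925 within day 28 and 0.934 between a day 3 and a day 28 array, so the median was no higher within a day than between days. All these correlations share the reference channel and are given as a description.

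No gene differed between day 28 and day 3 in exposed hearts at a Benjamini-Hochberg adjusted p under 0.05 in limma, that is 0 of 19818 genes tested (0%). The lowest adjusted p was 0.9998. At an unadjusted p under 0.05 there were 272 genes (1.37%), 93 with a positive difference (0.469% of all genes) and 179 with a negative one (0.903%). The count of 272 became 453 without carbon black day 28 replicate 3 and lay between 184 and 391 when any other exposed array was left out. The typical gene differed by very little: the median size of the difference was 0.09 on the log2 scale, the 95th percentile 0.30 and the median standard error 0.16. The 95% confidence interval of the difference lay within 2-fold in either direction for 18672 genes (94.2%) and within 1.5-fold for 14598 (73.7%). These intervals are not adjusted for the number of genes, while the threshold is. Large differences also went uncalled: Alb differed by -2.7, with an interval of -4.48 to -0.92 (limma, adjusted p = 0.9998). The size of difference that would pass with 5 arrays in a group was not tested. The genes named below are those of smallest unadjusted p in each direction and in each gene list, and none of them passed the threshold.

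Differences over 2-fold were seen in 35 of 19818 genes in exposed hearts. The vehicle controls gave 130 such genes, of which 129 were lower at day 28. The 35 genes were chosen here after their values were seen, and most are made mainly by the liver. Of these 32 were lower at day 28, and the same 32 also had a negative difference between day 28 and day 3 in the vehicle controls, with a median of -2.13. They included Fabp1, the fatty acid carrier of liver and gut, Serpina1d, an antitrypsin, the carboxylesterase Ces1c, the fibrinogen chains Fgb and Fgg and the microglobulin precursor Ambp. The exceptions on the negative side included Fasn, the fatty acid synthase of fat and liver (-1.06 ± 1.33, SE). The 3 on the positive side were Fgf12, an intracellular fibroblast growth factor homologue (1.04 ± 1.30), Bmp10, an atrial growth factor (1.46 ± 0.99), and a transcript known by accession only. Fgf12 was at 0.37 in the atrium-poor day 3 replicate 2 and between 4.35 and 6.49 in the other 9 hearts, and without that heart its difference was 0.07.

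Alb shows the pattern of many of the genes lower at day 28, but not of all. Mup1, also a liver marker, was at 5.61 in day 28 replicate 1. Cyp2e1 was at 4.22 and Pon1 at 4 in day 28 replicate 5. In day 3 hearts the log2 ratio of Alb was 4.45, 3.06, 4.62, 1.48 and 0.24, and in day 28 hearts 0.13, 0.18, -0.20, -0.04 and 0.29. The day 3 hearts were thus high in 3 mice, intermediate in 1 and at the level of day 28 in 1, and the ranges overlapped. The difference was -2.70 ± 0.87 (SE; limma, unadjusted p = 0.0042, adjusted p = 0.9998). In day 28 hearts no Alb spot was well above background, so their level has only an upper bound. As far as background goes, the measured day 3 mean was at least 6.5-fold higher. Such a bound leaves out the spread between mice. The 95% interval of the Alb difference ran from -4.48 to -0.92 on the log2 scale, and that of Fgg from -4 to -0.09. Each such bound is the smaller of 2 folds, that of the mean ratios and that of the mean heart-channel signals. In the second, a day 28 signal under the lowest one called well above background on its array is raised to it. With no dye swap the bounds are open to dye bias. Fabp1 was at 4.26, 3.69, 5.44, 0.49 and 0.10 at day 3 and between -0.08 and 0.10 at day 28, a difference of -2.81 ± 1.01 and at least 6.47-fold. Serpina1d ran from 0.85 to 3.63 at day 3 and from -0.02 to 1.32 at day 28 (-1.94 ± 0.64). Fgb and Fgg, also acute phase proteins, gave -2.11 ± 0.88 and -2.04 ± 0.96, at least 4.31-fold and 3.88-fold. Of the 11 liver markers tested, 10 had a negative difference, with a median of -0.92, against 49.7% of all genes with a negative difference and a median of 0. The liver median was -2.41 with Agilent processed signals.

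The 3 liver-rich hearts, those of highest Alb at day 3, were also left out, a choice made after the values were seen. A smaller difference of Alb without them follows from that choice, and only replicates 4 and 5 then stood for day 3. Without carbon black day 3 replicates 1, 2 and 3 the difference of Alb was -0.79, that of Fabp1 -0.31 and that of Serpina1d -0.60, and Apoa2, an apolipoprotein of liver origin, turned from -1.51 to 0.02. The median of the liver markers was then -0.39. On the slide that held the day 3 and day 28 replicate 2 the difference of Alb was -2.88, and on the slide with both replicates 5 it was 0.04. The vehicle controls gave -2.86 ± 0.80 for Alb, from 3.03 ± 2.50 (SD, n = 6) at day 3 to 0.17 ± 0.25 (SD, n = 6) at day 28, and the difference between the arms was 0.16 ± 1.18 (SE; limma, adjusted p = 0.9997).

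**Figure D2:**
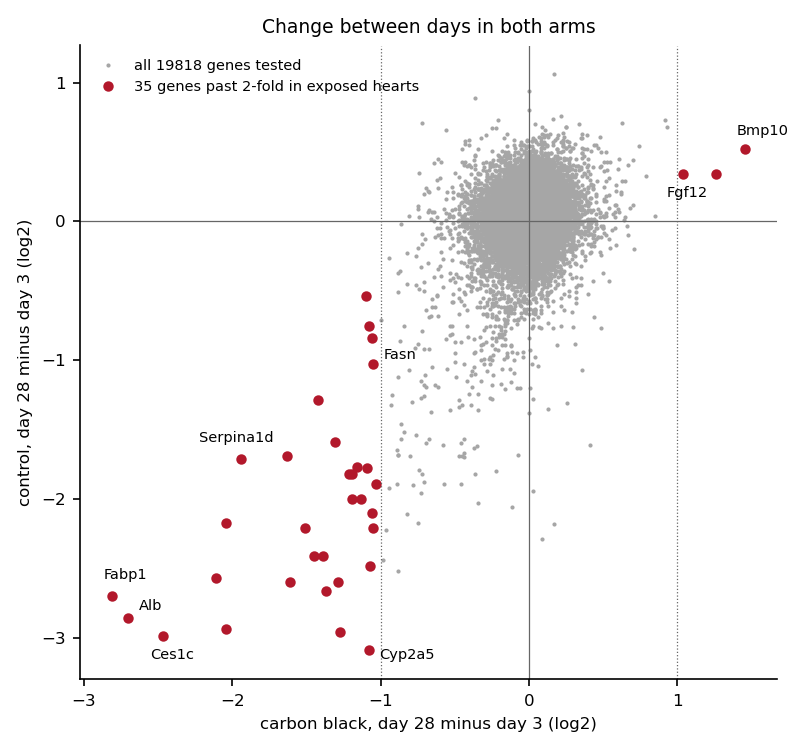
Difference between day 28 and day 3 (log2) in carbon black hearts on the horizontal axis and in vehicle hearts on the vertical axis, with 1 point for each of 19818 genes. The 35 genes past 2-fold in exposed hearts are red, and 32 of them sit at the lower left, negative in both arms.

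Of 35 interferon-responsive genes tested, 31 had a negative difference, and none passed the threshold. Type I interferons act through a transcription factor complex that holds STAT2 and IRF9 and binds a short promoter element, the interferon-stimulated response element, while interferon gamma acts mainly at another, the gamma-activated site. Gbp7, a guanylate-binding protein of the interferon gamma response, had the smallest unadjusted p of all genes. Its log2 ratio was 1.64, 1.23, 1.35, 2.04 and 1.5 at day 3 and 0.73, 0.84, 1.31, 1.13 and 0.51 at day 28. All 5 day 28 hearts were below the day 3 mean, and the ranges overlapped by 2 hearts, carbon black day 3 replicate 2 and day 28 replicate 3. The difference was -0.64 ± 0.18 (SE; 95% interval -1.01 to -0.28; limma, unadjusted p = 0.00113, adjusted p = 0.9998). It was -0.86 without the 3 liver-rich hearts, which left only day 3 replicates 4 and 5, at 2.04 and 1.5. Replicate 4 had the highest Gbp7 value of the exposed hearts. The guanylate-binding proteins are a family of close copies, and a single probe was tested, so a share from other members cannot be told apart.

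The control hearts stood between the exposed groups for Gbp7, at 1.16 ± 0.27 (SD, n = 6) at day 3 and 1.23 ± 0.32 (SD, n = 6) at day 28. The exposed mean was 1.55 ± 0.31 (SD, n = 5) at day 3 and 0.91 ± 0.32 (SD, n = 5) at day 28. The difference of the 2 time courses was -0.71 ± 0.24 (limma, unadjusted p = 0.00616, adjusted p = 0.9997), among the smallest p for that contrast but not past the threshold.

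Irf9, the DNA-binding subunit of the interferon complex, separated the days without overlap, as did 76 of all genes tested (0.383%). The day 3 hearts were at 0.85, 0.56, 0.74, 0.75 and 0.72, the day 28 hearts at 0.45, 0.30, 0.37, 0.39 and 0.48. The difference was -0.33 ± 0.13 (limma, unadjusted p = 0.0139). In the controls it was 0.05 ± 0.11, and the exposed minus control difference was 0.35 at day 3 and -0.03 at day 28. Stat2, its partner, was at 0.40, 0.23, 0.10, 0.33 and 0.20 at day 3 and 0.16, -0.14, 0.16, -0.03 and -0.99 at day 28. One heart, day 28 replicate 5, was far below the others, and the difference of -0.42 ± 0.16 became -0.21 without it. Bst2, the virus tether, gave -0.39 ± 0.20 and Irgm1, an interferon-induced GTPase, -0.18 ± 0.10. Siglec1, an interferon-induced lectin of macrophages, ran from 0.16 to 0.71 at day 3 and from 0.07 to 0.33 at day 28 (-0.34 ± 0.12). It was well above background in 4 of 5 and 2 of 5 hearts.

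Over the interferon list 2 of 35 genes had an unadjusted p under 0.05, Stat2 and Irf9, against 1.37% of all genes. Gbp7 and Siglec1 are not on the list and were named for their small p. The list median was -0.13, against 0 over all genes. It was -0.05 without day 28 replicate 2 and -0.21 without day 28 replicate 5. In the controls 12 of the same 35 were negative, with a median of 0.05, against 45.9% negative and 54.1% positive over all genes. The list scores of the hearts overlapped, from -0.03 to 0.23 at day 3 and from -0.33 to 0.24 at day 28. The macrophage marker score ran from -0.31 to 0.34 at day 3 and from -0.23 to 0.24 at day 28; its part in the interferon values was not tested.

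The promoters of Gbp7, Stat2 and Irf9 were searched because these genes belong to this pathway and their promoter sequences were at hand. Only those of Gbp7 and Stat2, which held matches, are shown. They are the 250 bases before the start of each gene on GRCm38.p6, from RefSeq, at chr3:142530086-142530335 and chr10:128270248-128270497, both on the plus strand. Capitals mark matches on either strand to the interferon-stimulated response element, searched as GAAA, any 2 bases and GAAA again, and to TTCNNNGAA, the gamma-activated site, which reads the same on both strands.
Gbp7: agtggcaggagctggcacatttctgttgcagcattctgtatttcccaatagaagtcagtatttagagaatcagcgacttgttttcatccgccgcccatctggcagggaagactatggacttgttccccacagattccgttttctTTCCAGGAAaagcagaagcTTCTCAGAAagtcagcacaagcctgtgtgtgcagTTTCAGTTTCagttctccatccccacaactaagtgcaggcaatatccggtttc
Stat2: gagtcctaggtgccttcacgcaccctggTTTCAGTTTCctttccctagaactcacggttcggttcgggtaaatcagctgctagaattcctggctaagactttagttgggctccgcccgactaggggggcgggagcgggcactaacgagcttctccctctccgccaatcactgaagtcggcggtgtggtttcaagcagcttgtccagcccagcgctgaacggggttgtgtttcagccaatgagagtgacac
The Gbp7 window held 1 match to the response element, at bases 198 to 207 counted from its 5′ end, and 2 to the gamma-activated site, at bases 145 to 153 and 164 to 172. The Stat2 window held 1 match to the response element, at bases 29 to 38. Of all 32851 windows, 2.98% held the response element and 7.02% the gamma-activated site. Neither motif was found in the 2 windows of Irf9, which are not shown. These matches describe the letters and not a bound factor.

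The laminin genes Lamb1 and Lamc1 were among the 12 genes of smallest p on the negative side. The basement membrane is the sheet of laminin and type IV collagen around each cardiomyocyte and capillary. Lamb1, the laminin beta 1 chain, was at 0.36, 0.56, 0.21, 0.53 and 0.09 at day 3 and at 0.01, -0.04, -0.02, -0.01 and -0.50 at day 28. Every day 28 heart lay below every day 3 heart. The difference was -0.46 ± 0.16 (SE; 95% interval -0.79 to -0.14; limma, unadjusted p = 0.00666), and -0.37 without day 28 replicate 5. On the 2 shared slides the day 28 heart was lower by a log2 difference of -0.60 and -0.59. Lamc1, the gamma 1 chain of the same trimer, was at 1.02, 0.68, 0.71, 0.59 and 0.48 at day 3 and at 0.24, 0.58, 0.36, 0.29 and 0.33 at day 28 (-0.34 ± 0.12). Its ranges overlapped. Col4a1 and Col4a2, the type IV collagen chains, gave -0.26 ± 0.18 and -0.23 ± 0.16.

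Of 13 basement membrane genes tested 11 had a negative difference, with a list median of -0.23. That median was -0.14 without day 3 replicate 3, -0.15 without day 3 replicate 4, -0.05 with Agilent processed signals and -0.42 under median centring in place of loess, which also moved the median of all genes to -0.139. The controls also had 11 of 13 negative and a median of -0.18. The difference between the arms was -0.17 ± 0.22 for Lamb1 and -0.15 ± 0.17 for Lamc1 (limma, unadjusted p = 0.431 and 0.374). The laminins were therefore not shown to differ in time course between exposed and vehicle hearts.

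Of 35 fibrillar matrix genes tested, 29 had a negative difference in exposed hearts, with a median of -0.18. The median was -0.09 without day 3 replicate 3, -0.28 without day 3 replicate 2 and -0.37 under median centring. Sparc, a collagen-binding matricellular protein, ran from -0.58 to 0.32 at day 3 and from -0.85 to -0.37 at day 28 (-0.39 ± 0.15; limma, unadjusted p = 0.0151). Col1a1 gave -0.59 ± 0.35, Col3a1 -0.72 ± 0.42 and Col6a1 -0.29 ± 0.16. In the controls 20 of the 35 were negative, with a median of -0.03. Cilp, a cartilage matrix protein made by cardiac fibroblasts, was at 2.05 ± 0.35 (SD, n = 5) at day 3 and at 1.33 ± 0.42 (SD, n = 5) at day 28. The fibroblast marker score ran from -0.45 to 0.53 at day 3 and from -0.30 to 0.37 at day 28, and its part in the matrix values was not tested.

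**Figure D3:**
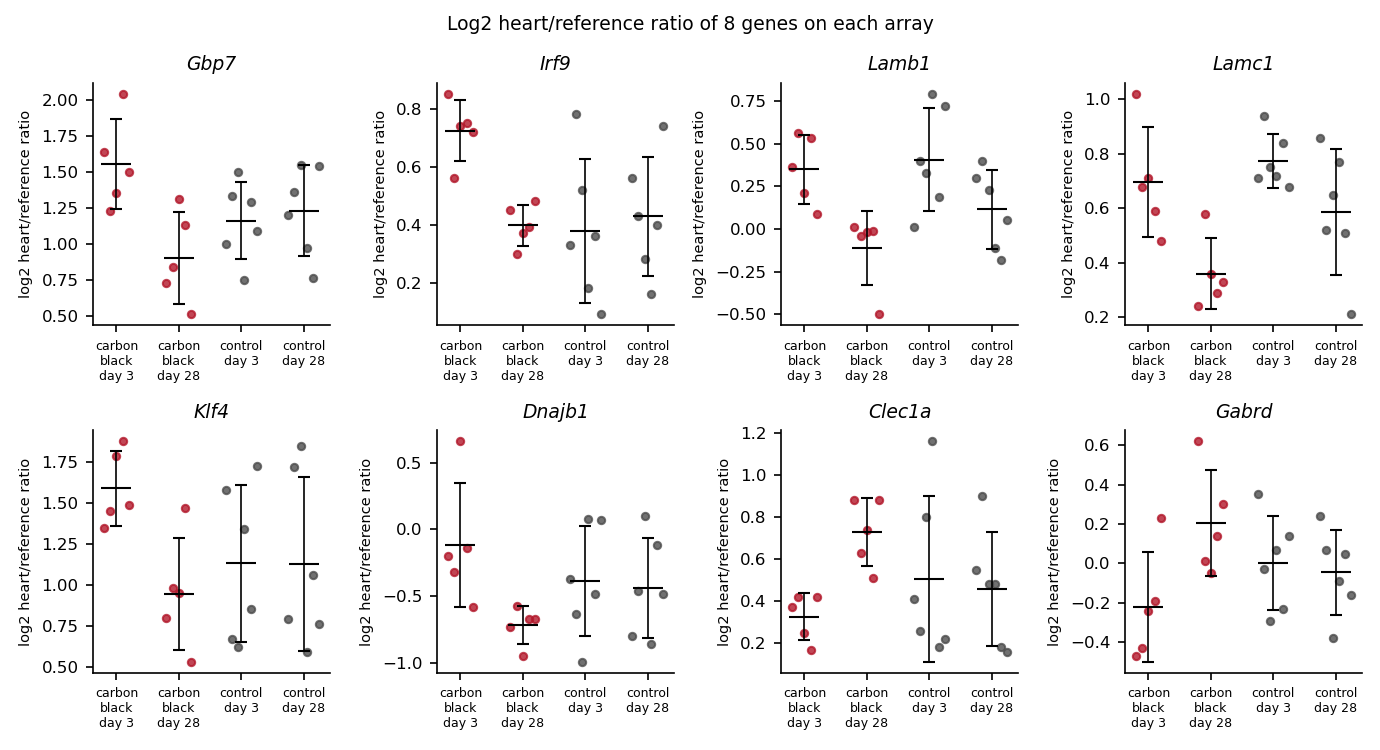
Log2 heart to reference ratio of 8 genes on each array, with the mean and SD of each group as bars, exposed arrays in red and controls in grey. The days separate without overlap in exposed hearts for Irf9, Lamb1 and Clec1a, and the control groups overlap for all 8.

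Of 23 cytosolic chaperones 18 had a negative difference, and of 23 immediate early genes 20, none past the threshold. Chaperones of the cytosol fold new and damaged proteins, and immediate early genes answer within minutes to stress and growth signals, handling of the tissue included. Dnajb1, a co-chaperone of HSP70, was at -0.20, -0.32, 0.66, -0.14 and -0.58 at day 3 and at -0.73, -0.57, -0.95, -0.67 and -0.67 at day 28. The difference was -0.60 ± 0.22 (limma, unadjusted p = 0.0109), and -0.41 without day 3 replicate 3. A second probe of the gene gave -0.37. Dnaja1 gave -0.42 ± 0.20, the HSP70 family member Hspa8 -0.33 ± 0.24 and the co-chaperone Stip1 -0.23 ± 0.15. The chaperone median was -0.15, and in the controls 8 of 23 were negative with a median of 0.11. In exposed hearts it was -0.08 without day 3 replicate 2, -0.10 without day 3 replicate 3, -0.08 with Agilent processed signals and -0.34 under median centring. Cct2 and Cct4, subunits of the chaperonin ring that folds actin and tubulin, were chosen after their values were seen because their days did not overlap. Cct2 lay between -1.06 and -0.89 at day 3 and between -1.46 and -1.13 at day 28 (-0.25 ± 0.10), and Cct4 differed by -0.27 ± 0.12.

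Klf4, a transcription factor that responds to shear stress and injury, was at 1.35, 1.45, 1.79, 1.88 and 1.49 at day 3 and at 0.80, 0.98, 0.95, 1.47 and 0.53 at day 28. A single day 28 heart, replicate 4, reached the day 3 range. The difference was -0.64 ± 0.24 (limma, unadjusted p = 0.013), against 0.00 ± 0.22 in controls. Dusp1, a phosphatase that ends MAP kinase signals, gave -0.50 ± 0.31. The median of the immediate early genes was -0.21, and in the controls 4 of 23 were negative with a median of 0.15. The exposed median rested on 1 heart. Day 3 replicate 3 had a list score of 1.17, against -0.18 to 0.21 in the other day 3 hearts, and without it the median was 0.02. The median was -0.35 without day 3 replicate 2 and -0.32 without day 28 replicate 5.

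The remaining genes of smallest p with a negative difference have no common function. They were Pip5k1a, a kinase that makes the membrane lipid PIP2 (-0.35 ± 0.13, and -0.21 without day 28 replicate 5), Plxna4, a semaphorin receptor (-0.26 ± 0.10), and Cplx1, a complexin of vesicle release (-0.48 ± 0.18, and -0.30 without day 28 replicate 4). Both other probes of Pip5k1a gave the same sign, -0.26 and -0.14.

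Of the 272 genes at an unadjusted p under 0.05, the 93 with a positive difference were led by Gabrd, Jsrp1 and Clec1a. Clec1a, a C-type lectin of endothelium, was at 0.37, 0.42, 0.25, 0.17 and 0.42 at day 3 and at 0.88, 0.63, 0.74, 0.51 and 0.88 at day 28, with no overlap. The difference was 0.40 ± 0.15 (SE; 95% interval 0.10 to 0.70; limma, unadjusted p = 0.0109), against -0.05 ± 0.14 in the controls. The endothelial marker list as a whole had a median of 0, with 9 of 18 genes on each side, and of 0.28 with Agilent processed signals. Gabrd, a GABA receptor subunit, was at -0.47, -0.43, -0.24, -0.19 and 0.23 at day 3 and at 0.62, 0.01, -0.05, 0.14 and 0.30 at day 28 (0.42 ± 0.13; limma, unadjusted p = 0.00289). A single day 3 heart, replicate 5, lay within the day 28 range.

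Jsrp1, a protein of the junctional sarcoplasmic reticulum, ran from -0.30 to -0.07 at day 3 and from -0.07 to 0.11 at day 28, a difference of 0.22 ± 0.08 with ranges that only just part. Foxe3, a forkhead factor known from the lens, likewise parted by little (0.21 ± 0.09). Jsrp1 was well above background in 3 of 5 hearts of each day and Foxe3 in 3 and 2 of 5. The other genes were Fam117b (0.39 ± 0.14), the diphthamide synthesis enzyme Dph7 (0.38 ± 0.14), Wdfy1, an endosomal adaptor (0.28 ± 0.11), the zinc finger genes Zfp647 (0.27 ± 0.11) and Zfp184 (0.28 ± 0.12), the postsynaptic scaffold Dlgap2 (0.29 ± 0.12), the histidine methyltransferase Mettl18 (0.25 ± 0.11) and Xlr (0.51 ± 0.22). Xlr belongs to a family of close copies, and a second probe gave 0.40. The 2 other probes of Fam117b gave 0.18 and 0.08.

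Heart muscle genes differed little. Tnnt2, cardiac troponin T, was at 4.32 ± 0.18 (SD, n = 5) at day 3 and at 4.53 ± 0.24 (SD, n = 5) at day 28, and Csrp3, a Z-disc protein, at 5.03 ± 0.22 and 5.32 ± 0.20. Of 22 sarcomere genes 19 had a positive difference (50.3% of all genes did), with a median of 0.20 and 0 genes at an unadjusted p under 0.05, and the ventricular list had the same median. Both rested on day 3 replicate 4, whose ventricular score was -0.75. Without that heart the sarcomere median was 0 and the ventricular median 0.02. All 13 atrial markers were positive, with a median of 0.48, and without the atrium-poor day 3 replicate 2 the median was -0.08. Nppb, the natriuretic peptide that rises when the heart wall is stretched, was at 2.25 in that heart and between 5.27 and 6.49 in the other 9, and its difference of 0.92 ± 0.55 became 0.23 without it. The log2 ratio of Nppa, the atrial natriuretic peptide, was 4.97 ± 0.24 in day 3 hearts and 5.29 ± 0.32 (SD, n = 5 each) in day 28 hearts. Bmp10 was near the reference in 2 day 3 hearts, at -0.02 and 0.31, and between 3.38 and 4.57 in the others, and its difference was 0.82 without day 3 replicate 2 and 0.91 without day 3 replicate 3.

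Fuel genes gave medians near 0. Median centring moved the medians of the sarcomere, ventricular and fatty acid oxidation lists to 0, 0.01 and -0.14, beside -0.139 for all genes. Of 32 respiratory chain genes 27 were positive with a median of 0.09, which was 0 without day 3 replicate 4 and -0.08 under median centring. Atp5a1, a subunit of ATP synthase, gave 0.29 ± 0.23 and Cox4i1, of cytochrome oxidase, 0.23 ± 0.19. The 32 genes of fatty acid oxidation stood at a median of 0.05 in exposed hearts and -0.26 in controls, and Acadvl, the very long chain acyl-CoA dehydrogenase, gave 0.30 ± 0.27 and -0.24 ± 0.25. Cholesterol synthesis and uptake genes were negative for 20 of 22 in exposed hearts (median -0.14) and 19 of 22 in controls (median -0.24). Fdps, which makes farnesyl diphosphate, lay between -1.38 and -0.88 at day 3 and between -1.64 and -1.41 at day 28, without overlap (-0.28 ± 0.16). The adipocyte median of -0.29 became 0.13 without the fat-poor day 28 replicate 3.

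Genes of inflammation and of the response to particles gave no common direction, with 14 of 31 acute phase and chemokine genes positive and 17 negative. Ccl2, the chemokine that draws monocytes, was at -3.07, -2.75, -2.02, -3.15 and -2.80 at day 3 and at -3.20, -3.47, -2.79, -3.15 and -3.11 at day 28. Day 3 replicate 3 was the highest, and the ranges overlapped (-0.39 ± 0.19; limma, unadjusted p = 0.0479). Without that heart the difference of Ccl2 was -0.21 (limma, unadjusted p = 0.255). The controls gave 0.22 ± 0.17. Socs3, the feedback inhibitor of interleukin 6 signalling, gave -0.21 ± 0.12. Saa3, a serum amyloid, gave 0 ± 0.30, Il6 0.02 ± 0.17, the tissue inhibitor Timp1 -0.12 ± 0.19 and the heme oxygenase Hmox1 -0.04 ± 0.14, these 4 chosen as well-known particle responses outside the naming rule and after their values were seen. The acute phase and chemokine list had a median of -0.05 and the 32 antioxidant genes of the Nrf2 pathway -0.01, with Gsta1, a glutathione transferase, at 0.43 ± 0.32. None of the 6 aryl hydrocarbon receptor genes tested was negative, with a median of 0.18 that was -0.04 under median centring. Ahrr, the repressor of that receptor, gave 0.30 ± 0.26. The neutrophil list had 6 genes tested and a median of 0.05, and S100a9 was at 3.74 ± 0.72 (SD, n = 5) and 3.87 ± 0.75 (SD, n = 5).

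Stress genes of the endoplasmic reticulum split in direction. Ppp1r15a, which restores translation after stress, gave -0.37 ± 0.15 and Herpud1, which helps to clear misfolded proteins, 0.32 ± 0.14, and the list median over 26 genes was -0.02. Among clock genes, Arntl, the core activator, was at 1.03, 0.94, 1.30, 0.72 and 1.05 at day 3 and at -0.20, 0.81, 0.13, 0.26 and 0.69 at day 28. The difference was -0.67 ± 0.37 (limma, unadjusted p = 0.0817). Dbp, an output gene that peaks when Arntl is low, gave 0.71 ± 0.40, Ciart 0.68 ± 0.43 and Per3 0.21 ± 0.12. In the vehicle hearts Arntl ran from -0.11 to 1.60 at day 3 and from -0.88 to 1.66 at day 28. Dbp ran there from -1 to 1.19 at day 3 and from -1.39 to 1.40 at day 28. These genes cycle over the day, and the hour at which hearts were taken is not given in the sources used here, so their part in these values was not tested.

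**Figure D4:**
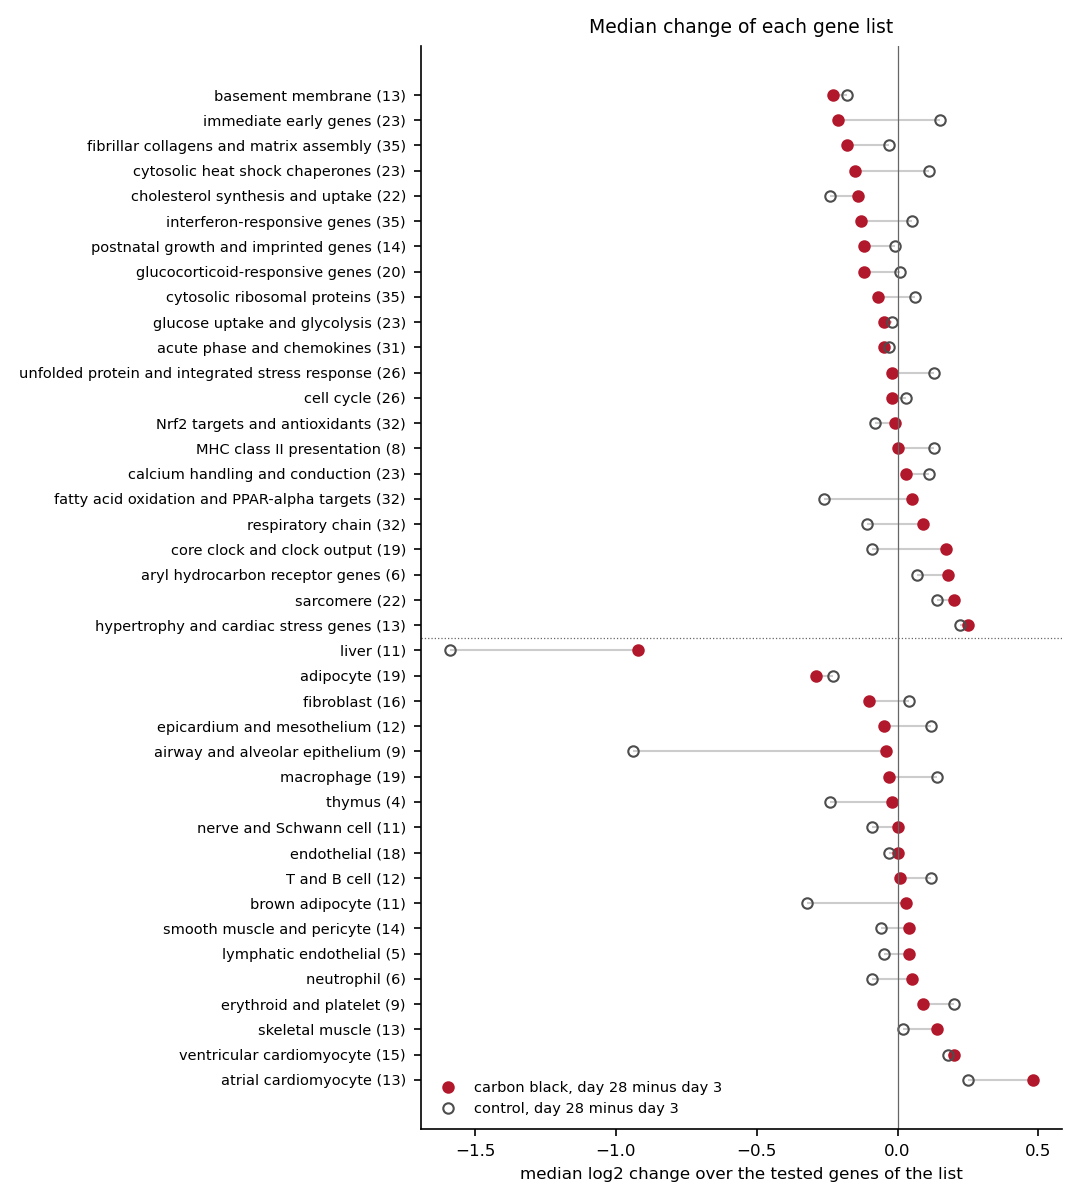
Median difference between day 28 and day 3 (log2) over the tested genes of each of 40 lists, with carbon black filled and controls open and the number of genes in brackets. Liver genes have the lowest median in both arms, -0.92 and -1.59, and no list holds a gene past the threshold.

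The vehicle controls were compared over the same days, and their difference was set against that of the exposed hearts. In controls 0 of 19818 genes passed between day 28 and day 3 (limma, lowest adjusted p 0.9991), and 877 had an unadjusted p under 0.05 (4.43%). The test of the difference between the 2 time courses also called 0 genes (lowest adjusted p 0.9997), with 240 at an unadjusted p under 0.05 (1.21%). With 5 or 6 arrays in a group this does not show that the time courses were alike. The genes of smallest p on the negative side, besides Gbp7, were Plxna4 (-0.35 ± 0.13), Cplx1 (-0.68 ± 0.25), the olfactory receptor Olfr190 (-0.58 ± 0.20), the endocytic scaffold Itsn1 (-0.46 ± 0.16) and the oocyte gene Khdc3. Khdc3 was well above background in 2 of 5 exposed hearts at day 3 and in 0 of 5 at day 28. Only a bound against background can be given, at least 1.07-fold higher at day 3 in exposed hearts. This bound leaves out the spread between mice. On the positive side they were Kyat3, a kynurenine aminotransferase (0.86 ± 0.28), Tbx1, a T-box factor (0.85 ± 0.30), the transporter Slc16a11 (1.18 ± 0.42), the retinoic acid hydroxylase Cyp26b1 (1.43 ± 0.51), Olfr906 (0.29 ± 0.10) and Bpifa1 (2.38 ± 0.87), a secreted protein of the airway. Exposed hearts alone gave 0.32 for Kyat3, 0.43 for Tbx1, 0.31 for Slc16a11, 0.36 for Cyp26b1 and 0.18 for Olfr906. The rest of each arm difference was a fall in the controls. Bpifa1 was at 2.35 ± 2.41 (SD, n = 6) in control day 3 hearts and at 0.06 ± 0.10 (SD, n = 6) in control day 28 hearts, and at 0.24 ± 0.18 and 0.33 ± 0.79 (SD, n = 5) in the exposed hearts.

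The arrays of the 2 days did not overlap for 76 genes (0.383%), 26 higher and 50 lower at day 28. In the controls, whose groups held 6 arrays each, 11 genes (0.0555%) did not overlap. The exposed groups were smaller, and smaller groups part more readily whatever the labels. The 2 counts therefore do not compare the arms. How many genes would part under shuffled labels was not tested. Among the 76 were Lamb1, Irf9, Clec1a, Jsrp1, Foxe3, Fdps, Itsn1, Cct2 and Cct4, and the liver genes Ces1c and Fgg. The median size of their differences was 0.28 on the log2 scale.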

How the data were processed

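Heart RNA of 34 mice was hybridised to two-colour Agilent arrays, with 200 ng of total RNA per sample amplified and labelled with Cy5, per the labels' protocols, against Cy3 reference RNA. The deposited scanner files hold median foreground and background intensities per spot, read with Feature Extraction 10.1.1.1, per the file headers, and Agilent's log10 ratio, used only to check direction. The authors' deposited log2 value table served as an alternative; it correlated at 0.995 to 0.998 with loess-normalised ratios without background correction.

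Signals were corrected with normexp (offset 50) and loess in limma 3.58.1 (R 4.3.3), with controls and flagged spots at weight 0. Probes were kept if the heart channel was well above background in 0.5 or more of any group's arrays and at most 3 values were missing, and each of 19818 genes took its probe of highest mean heart signal. Of these, 12365 had a symbol, matched through RefSeq accessions. A mean for each of the 6 groups was fitted with lmFit and eBayes (28 residual degrees of freedom), with Benjamini-Hochberg adjustment over all genes at 0.05, and the fit was tested on simulated data. With no gene past it, the 12 genes of smallest unadjusted p in each direction, 6 for the difference between arms and up to 4 for each list were named; clone names were left out. The members and lists were chosen with earlier results of these data known. Samples are separate mice, per the labels; p-values measure the spread between these arrays. Alternatives changed background correction, normalisation, signals, filter, probe rule, slide, scan day, position, samples fitted and arrays left out. Leaving out carbon black day 3 replicates 1, 2 and 3 was chosen after seeing the data. Plots were made with matplotlib 3.10.9.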

Additional observations from a re-analysis of the deposited data

Results flagged for a closer look

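Among 228 sets of 5 values (74 genes and 40 list scores in each exposed group), 24 held a heart whose gap to its nearest neighbour exceeded 0.71 of the range, a limit that chance passes in about 1 of 20 sets. Many of the flags fell on the same few hearts, and genes of a list are not independent of its score.

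Carbon black day 3 replicate 4 stood apart in 6 sets. Its scores were -0.72 for sarcomere genes, -0.75 for ventricular cardiomyocytes, -0.49 for calcium handling and conduction, -1.06 for smooth muscle and pericytes and 1.06 for lymphocytes. Acaca, which makes malonyl-CoA for fat synthesis, was at 1.36 there and between -0.13 and 0.05 in the other day 3 hearts. Carbon black day 3 replicate 2 stood apart for the atrial score (-2.17), Nppb (2.25, against 5.27 or more) and Plxna4 (0.03, against 0.31 or more). Carbon black day 3 replicate 3 stood apart for the immediate early score (1.17) and Xlr (-2.37, against -2.95 or less).

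Carbon black day 28 replicate 5 was flagged for Lamb1 (-0.50, against -0.04 to 0.01), Stat2 (-0.99, against -0.14 to 0.16), Itsn1 (-0.38) and Dusp1 (1.84, against 0.95 to 1.1), and for the scores of sarcomere genes (-0.17), antioxidant genes (0.17) and ribosomal proteins (0.26). Carbon black day 28 replicate 2 had the airway protein Bpifa1 at 1.74, against -0.10 to 0.07 in the other day 28 hearts, and the highest airway score (0.19). Single values came from carbon black day 28 replicate 1 (Jsrp1 at -0.07, Tnnt2 at 4.94), replicate 3 (Wdfy1 at -0.41) and replicate 4 (Cplx1 at -0.75).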

How the results depend on the processing

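No gene passed the threshold in any of the 82 alternative counts over the 3 comparisons (exposed hearts, control hearts and their difference). A setting run for all 3 comparisons enters the 82 as 3 counts. In exposed hearts the genes at an unadjusted p under 0.05 numbered 272, and between 101 and 766 in the alternatives. The lowest count came from the 12078 genes well above background on all arrays and the highest from the 33266 genes with no filter on dim probes. It was 465 with Agilent processed signals, 525 without carbon black day 3 replicates 1, 2 and 3, and 184 to 453 when 1 array was left out. No direction turned for the 24 genes of smallest p. Without carbon black day 3 replicates 1, 2 and 3, Apoa2 turned to 0.02, Bmp10 to -0.33 and Mb, myoglobin, to -0.01. Bpifa1, at 0.09, turned to -0.39 with Agilent processed signals, -0.01 with slide and -0.10 with array position as a fixed block, and lay between -0.27 and 0.19 when 1 exposed array was left out; the cause was not tested. Arrays of a slide correlated at 0.0533 when slide was fitted as a random block. No paired analysis was possible because the labels give each mouse a number of its own and the replicate numbers used here only name the arrays. Genes near background, such as Alb in day 28 hearts, have only bounds.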

Other observations

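Lists not described above gave small medians in exposed hearts. Of 35 cytosolic ribosomal protein genes, 27 had a negative difference, with a median of -0.07, which was 0.01 with Agilent processed signals. Of 20 glucocorticoid-responsive genes 14 were negative (median -0.12), and of 14 postnatal growth and imprinted genes 10 (median -0.12). Of 26 cell cycle genes 16 were negative (median -0.02). The 8 MHC class II genes were divided evenly, with list scores from -0.55 to 1.18 at day 3 and from -0.46 to 1.26 at day 28. No gene of these lists passed the threshold in limma.

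Airway genes were not shown to differ in time course between vehicle and carbon black hearts. All 9 airway and alveolar genes tested had a negative difference in controls, with a median of -0.94, and 5 of 9 in exposed hearts, with a median of -0.04. The difference between arms had an unadjusted p under 0.05 for 5 of the 9, against 1.21% of all genes, and an adjusted p under 0.05 for 0 (limma). The airway score of the control day 3 hearts ran from -0.13 to 2.89, so only some of them were high, and that of the control day 28 hearts from -0.11 to 0.11.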
